A study of Mus musculus with 9 samples.

Results

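The genes described here are 7 genes linked to inherited Parkinson disease, Park7, Pink1, Fbxo7, Htra2, Lrrk2, Vps35 and Atp13a2, out of 55851 genes in the deposited table. They were chosen by gene symbol, and each symbol belonged to a single gene identifier. RNA of lung cells from female C57BL/6J mice was sequenced in 9 libraries, in 3 groups of 3, all with the time label of 7 weeks. Wild-type mice were given saline (WT PBS, replicates 1, 2 and 3) or ovalbumin, a protein used to provoke allergic airway inflammation (WT OVA, replicates 5, 6 and 9), and mice lacking DJ-1 were given ovalbumin (DJ-1 KO OVA, DJ1_KO_OVA_263, DJ1_KO_OVA_266 and DJ1_KO_OVA_267). The series title concerns the part of DJ-1 in allergic inflammation, and the comparison of the ovalbumin groups addresses the loss of DJ-1. Which exons the knockout allele lacks, whether the mice were littermates and whether each library is a single animal are not stated in the sources used here. The p-values therefore measure the spread between libraries, which may be technical. The labels hold no knockout group challenged with saline, so genotype can be compared among challenged mice only.

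Mitochondria are kept in working order by several linked systems. The kinase PINK1 accumulates on damaged mitochondria and, with the ubiquitin ligase parkin, marks them for removal by autophagy, the process called mitophagy. DJ-1 limits oxidative damage, HTRA2 is a protease of the mitochondrial intermembrane space, and FBXO7 is a ubiquitin ligase adaptor that acts with PINK1 and parkin. LRRK2, VPS35 and ATP13A2 act mainly on membranes of the endosome and lysosome, where material is sorted and degraded, and LRRK2 is known in lung from alveolar type 2 cells, which store surfactant in lysosome-related bodies.

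The 9 libraries held 20812192 to 29080130 reads, recovered from the deposited FPKM, which are reads divided by gene length and by the library size the authors used. Levels below are in FPKM, which is per length and can be set side by side between genes. Differences are between group means of log2(FPKM + 0.5), with the adjusted p of a limma fit over 17716 genes. The deposited values carry a lung profile in which alveolar type 2 markers were abundant, with summed FPKM over 13 markers of 26433 to 43794 in WT PBS, 33993 to 43417 in WT OVA and 7149 to 14964 in DJ-1 KO OVA. Of those 13 markers, 2 were called lower and 1 higher in DJ-1 KO OVA than in WT OVA, with a median difference of -0.65. For the marker counts in this paragraph, the shares over all tested genes in that comparison were 5.93% called higher and 8.24% called lower. Summed FPKM over 11 neutrophil markers was 8770 to 24855, 13192 to 19394 and 1476 to 4489 in the same order, and 8 of the 11 were called lower in DJ-1 KO OVA than in WT OVA. For 11 alveolar macrophage markers the sums were 2239 to 3510, 3402 to 14113 and 10938 to 33943, with 1 called higher and 2 lower between the ovalbumin groups. Only 4 of these 11 had a positive difference and the median was -0.066, so the sum does not stand for most of the markers. Of 10 fibroblast and matrix markers 5 were called higher and 1 lower (median 1.00). Their sums overlapped, with 765 to 1057 in WT OVA and 726 to 1334 in DJ-1 KO OVA. DJ1_KO_OVA_263 stood apart, with a summed FPKM of 1283 over 10 T cell markers against 217 to 377 in the other 8 libraries and of 23.7 over 10 endothelial markers against 58.9 to 177. All 10 T cell markers had positive differences between DJ-1 KO OVA and WT OVA (median 0.97), 4 of them called higher. For 6 of these 10 the groups did not overlap, against 37.2% of the tested genes. Of the 10 endothelial markers, 0 had a positive difference (median -0.68) and 1 was called lower. None of the markers in the 15 cell type lists was at 0 in every library. In such bulk samples, fewer cells of a type and less RNA per cell cannot be told apart, and the part of cell makeup in the differences below was not tested.

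In wild-type lung, Pink1 and Park7 were the most abundant of the 7 and Fbxo7 the least. In WT PBS the mean FPKM (± SD, n = 3) ranked from Pink1 (62.9 ± 14.0) over Park7 (46.7 ± 8.91), Atp13a2 (27.0 ± 3.21), Vps35 (15.6 ± 4.73), Htra2 (14.4 ± 2.64) and Lrrk2 (7.28 ± 1.37) to Fbxo7 (3.10 ± 0.260). The libraries of Pink1 and Park7 overlapped in this group, as did those of Vps35 and Htra2, and the other neighbours in the order did not. WT OVA had nearly the same order, with Park7 (57.2 ± 3.78) and Pink1 (53.9 ± 0.958) in the opposite places and overlapping, and with Atp13a2 (25.2 ± 4.43) and Vps35 (20.6 ± 4.16) overlapping. In DJ-1 KO OVA the order was Pink1 (26.5 ± 0.639), Atp13a2 (21.3 ± 9.10), Vps35 (15.7 ± 2.76), Htra2 (8.67 ± 3.88), Lrrk2 (8.12 ± 3.28), Park7 (5.08 ± 1.92) and Fbxo7 (2.71 ± 0.189), and only Park7 and Fbxo7 did not overlap as neighbours. Over all 9 libraries, the mean of Pink1 lay above that of 93.6% of the tested genes and the mean of Park7 above 91.7%. The same share was 88.0% for Atp13a2, 84.0% for Vps35, 79.2% for Htra2, 68.7% for Lrrk2 and 46.5% for Fbxo7. All 7 genes passed the filter on low values, and the lowest read number behind any value was 241, for Park7 in DJ1_KO_OVA_267.

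**Figure D1:**
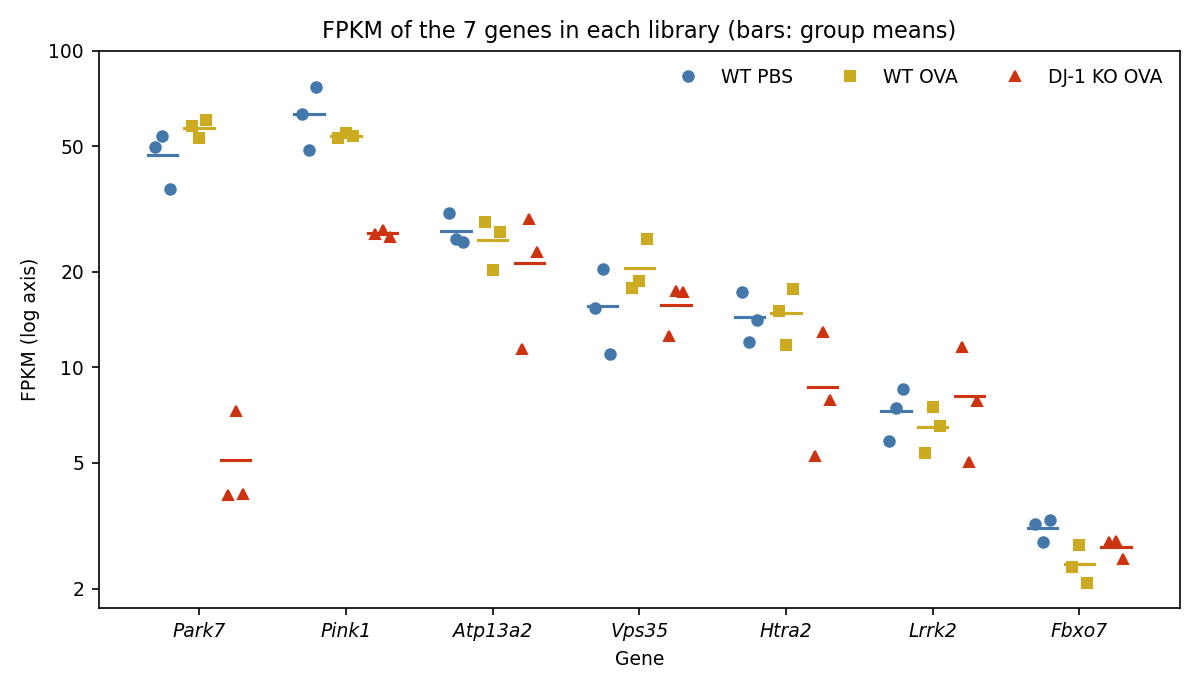
FPKM (log axis) of the 7 genes in each library. Symbols are libraries (circles WT PBS, squares WT OVA, triangles DJ-1 KO OVA) and short bars are group means. The 3 knockout libraries lie below all 6 wild-type libraries for Park7 and for Pink1, whose knockout values lie between 25.9 and 27.1.

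Park7 (ENSMUSG00000028964, chromosome 4, 150897133 to 150914437, minus strand, GRCm38.p6) encodes DJ-1, a small redox-sensitive protein, and is the gene targeted in the knockout, so its level checks the labels. Its FPKM was 49.6, 53.8 and 36.7 in WT PBS, 57.9, 53.1 and 60.5 in WT OVA, and 3.96, 7.29 and 3.97 in DJ-1 KO OVA. The knockout libraries were low and did not overlap with either wild-type group, as their labels say. The difference from WT OVA was -3.42 (SE 0.25, 95% interval -3.98 to -2.86), or 10.7-fold lower, with a limma adjusted p of 0.00019. Reads of the gene were not absent: 338, 427 and 241 reads remained in DJ1_KO_OVA_263, DJ1_KO_OVA_266 and DJ1_KO_OVA_267, against 2627 to 3014 in the wild-type libraries. The table gives a single value for the whole gene, so these reads cannot be placed on exons here.

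Pink1 (ENSMUSG00000028756, chromosome 4, 138313409 to 138326307, minus strand), which encodes the mitochondrial kinase that starts mitophagy, was the other gene of the 7 that was called lower in the knockout. Its FPKM was 63.3, 48.7 and 76.8 in WT PBS, 53.0, 54.9 and 53.8 in WT OVA, and 26.4, 27.1 and 25.9 in DJ-1 KO OVA. All knockout libraries lay below all wild-type libraries, and the values within each ovalbumin group were close together, with an SD of 0.958 among the wild-type and 0.639 among the knockout libraries. The gap between those groups was -1.01 (SE 0.20, 95% interval -1.46 to -0.57), or 2.02-fold lower, with a limma adjusted p of 0.0165. The call was lost when any of 4 libraries was left out. Leaving out WT OVA replicate 5, 6 or 9 gave an adjusted p of 0.0548, 0.0607 and 0.0594, and without DJ1_KO_OVA_267 it was 0.0683, with differences of -1.02 to -0.995. It also rested on the scaling between libraries. With every library rescaled to the same FPKM sum, the difference was -0.40 with an adjusted p of 0.274, and that scaling moved the median of all tested genes by 0.46 in the same comparison.

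The sequences before the starts of Park7 and Pink1 are shown because these were the members called lower in the knockout. Park7 is low because it is the targeted gene, so the pair cannot be read as genes with a shared response. They come from RefSeq (GRCm38.p6), which matched 5 of the 7 genes, and run 5′ to 3′ on the gene's strand over the bases before the RefSeq start that lie in no annotated exon of the gene. Capitals mark the GC box, GGGCGG or its reverse complement, the core of the site bound by Sp1-type factors. The Park7 stretch is chr4:150909927-150910171 with 245 bases and the Pink1 stretch is chr4:138326308-138326546 with 239 bases. RefSeq starts Park7 at 150909921, 4516 bases inside the gene as the deposited coordinates give it (start at 150914437), so the Park7 stretch lies within that longer gene model. For Pink1 the starts differ by 11 bases.
Park7: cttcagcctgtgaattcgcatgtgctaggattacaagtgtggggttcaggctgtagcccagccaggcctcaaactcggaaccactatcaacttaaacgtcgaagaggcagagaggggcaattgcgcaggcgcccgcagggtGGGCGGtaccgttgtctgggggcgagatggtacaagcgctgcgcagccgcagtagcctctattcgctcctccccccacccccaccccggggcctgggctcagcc
Pink1: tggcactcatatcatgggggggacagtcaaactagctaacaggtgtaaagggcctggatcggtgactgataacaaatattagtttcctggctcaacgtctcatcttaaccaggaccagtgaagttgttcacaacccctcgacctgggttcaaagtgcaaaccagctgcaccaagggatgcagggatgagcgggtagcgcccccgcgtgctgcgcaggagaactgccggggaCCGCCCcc
Each stretch held 1 GC box, and G and C made up 62.4% of the Park7 bases and 56.1% of the Pink1 bases. Both strands of the 250 bases before each start were searched. Lrrk2 had 2 matches, Atp13a2 had 1 and Fbxo7 had 0, while 32.7% of the 32851 promoter windows in the table held a GC box. The antioxidant response element core TGACNNNGC and the E-box CACGTG had 0 matches in the 5 genes, and were present in 10.2% and 6.02% of the windows.

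Fbxo7 (ENSMUSG00000001786, chromosome 10, 86021972 to 86051873), the ubiquitin ligase adaptor, was the least abundant member in every group. Its FPKM was 3.20, 2.81 and 3.30 in WT PBS, 2.33, 2.74 and 2.08 in WT OVA, and 2.81, 2.82 and 2.49 in DJ-1 KO OVA. The WT OVA libraries all lay below the WT PBS libraries, by a small margin. That difference was -0.32 (95% interval -0.71 to 0.06) with a limma adjusted p of 0.729, and the knockout differed from WT OVA by 0.16 (95% interval -0.23 to 0.54, adjusted p 0.538), with overlapping libraries.

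Htra2 (ENSMUSG00000068329, chromosome 6, 83051266 to 83055273) encodes the protease that is released from mitochondria in dying cells and blocks inhibitors of apoptosis. Its FPKM was 17.2, 12.0 and 14.1 in WT PBS, 15.0, 11.8 and 17.6 in WT OVA, and 5.23, 12.9 and 7.91 in DJ-1 KO OVA. DJ1_KO_OVA_263 and DJ1_KO_OVA_267 lay below all 6 wild-type libraries, and DJ1_KO_OVA_266 lay within their range. The difference from WT OVA was -0.81 (SE 0.30, 95% interval -1.47 to -0.15) and was not called, with a limma adjusted p of 0.0859. Without DJ1_KO_OVA_266 it was -1.12 with an adjusted p of 0.011. The annotated gene shares 753 bases with Aup1 (mean FPKM 35.3) and 1297 bases with Loxl3 (mean FPKM 2.04), both on the opposite strand, and whether the counting used strand is not stated in the labels or processing notes. How reads in the shared bases were counted therefore cannot be told here. These overlaps are between whole gene spans, introns included.

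Lrrk2 (ENSMUSG00000036273, chromosome 15, 91673175 to 91816120) encodes a kinase that phosphorylates Rab proteins on endolysosomal membranes. Its FPKM was 5.84, 7.46 and 8.56 in WT PBS, 5.37, 7.52 and 6.52 in WT OVA, and 11.6, 5.01 and 7.80 in DJ-1 KO OVA. The highest and the lowest of the 9 values were both knockout libraries, DJ1_KO_OVA_263 and DJ1_KO_OVA_266. The knockout differed from WT OVA by 0.25 (95% interval -0.37 to 0.87), with a limma adjusted p of 0.552 and overlapping libraries, and without DJ1_KO_OVA_263 the difference was -0.032.

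Vps35 (ENSMUSG00000031696, chromosome 8, 85260392 to 85299802) encodes the core of retromer, the coat that returns cargo from endosomes. Its FPKM was 15.4, 20.5 and 11.0 in WT PBS, 17.8, 18.7 and 25.4 in WT OVA, and 12.5, 17.4 and 17.3 in DJ-1 KO OVA. The knockout libraries lay just below the WT OVA libraries and within the WT PBS range. The difference from WT OVA was -0.38 (95% interval -0.94 to 0.19) with a limma adjusted p of 0.306, and it was 0.23 with equal FPKM sums. The gene shares 171 bases with Orc6 on the opposite strand.

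Atp13a2 (ENSMUSG00000036622, chromosome 4, 140986873 to 141007330) encodes a polyamine transporter of the lysosome. Its FPKM was 30.7, 25.5 and 24.9 in WT PBS, 28.7, 20.2 and 26.7 in WT OVA, and 11.5, 29.4 and 23.2 in DJ-1 KO OVA. DJ1_KO_OVA_263 was the lowest of the 9 and DJ1_KO_OVA_266 was within the wild-type range. The difference from WT OVA was -0.32 (95% interval -1.01 to 0.37) with a limma adjusted p of 0.481, and it was 0.065 without DJ1_KO_OVA_263 and 0.29 with equal FPKM sums.

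**Figure D2:**
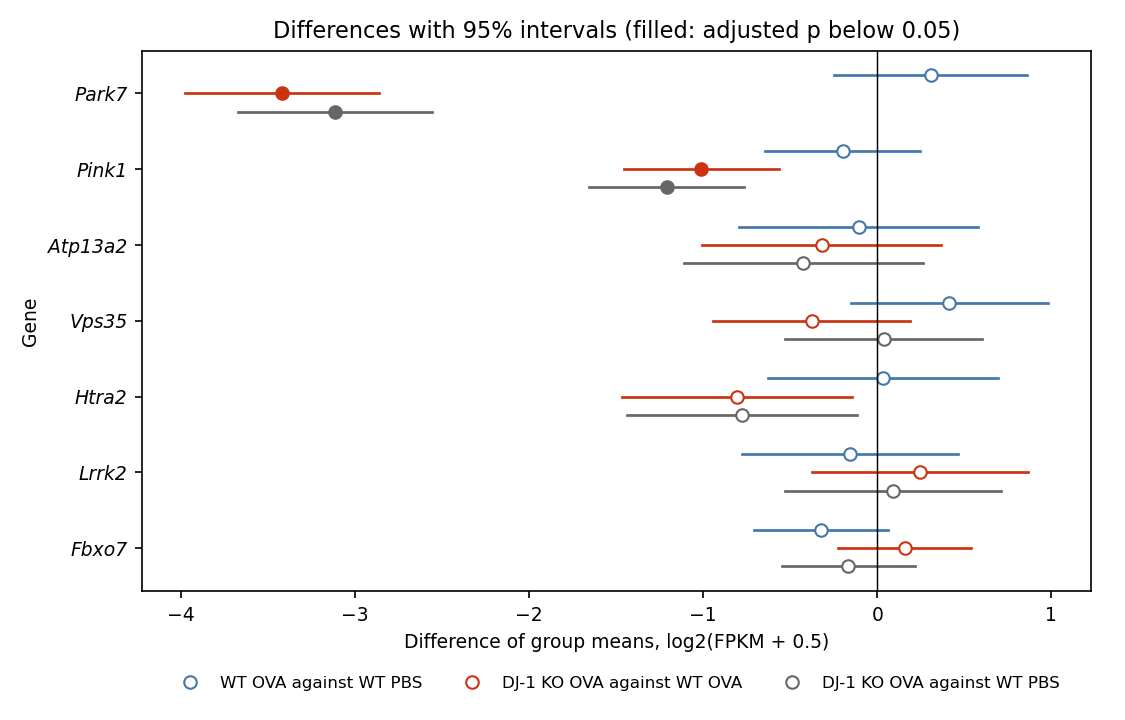
Differences between group means on the log2(FPKM + 0.5) scale for the 7 genes in the 3 comparisons, with 95% intervals as lines. Filled points were called at an adjusted p below 0.05: Park7 (-3.42) and Pink1 (-1.01) in DJ-1 KO OVA against WT OVA, and both again against WT PBS. The intervals of the other 5 genes include 0, except those of Htra2 in both knockout comparisons, which end at -0.15 and -0.11.

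Ovalbumin challenge of wild-type mice was accompanied by no called difference in the 7 genes. Of all tested genes, 0.00564% were called in WT OVA against WT PBS, a single gene, and limma-voom on the recovered reads called 0 genes. At an unadjusted p below 0.05 there were 0 of the 7 members and 1146 of the tested genes. The member differences ran from -0.32 for Fbxo7 to 0.41 for Vps35 (95% interval -0.15 to 0.98), and the differences of Park7 and Pink1 were 0.31 (95% interval -0.25 to 0.86) and -0.20 (95% interval -0.64 to 0.25). The groups did not overlap for 1 of the 7 genes, Fbxo7, against 14.8% of the tested genes. An exact test of 3 libraries against 3 has 0.1 as its smallest two-sided p, so the calls rest on the fit across genes.

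In DJ-1 KO OVA against WT OVA, 2 of the 7 genes were called lower, Park7 and Pink1, and 0 higher. Among tested genes, 14.2% were called, 5.93% higher and 8.24% lower. Pink1 is the only call among the 6 genes other than the targeted gene, and such a count lies near the share called among all genes. The groups did not overlap for 3 of the 7 genes, Park7, Pink1 and Vps35, against 37.2% of the tested genes. The median difference of the 7 genes was -0.38, beside a median of 0.00 over all tested genes.

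Against WT PBS, a comparison in which both genotype and challenge differ, the same knockout libraries gave -3.11 for Park7 (8.66-fold lower, limma adjusted p 0.000268) and -1.21 for Pink1 (SE 0.20, 95% interval -1.66 to -0.76, 2.31-fold lower, adjusted p 0.00764). These were 2 of 7 genes called, both lower, where 8.54% of the tested genes were called, 4.07% higher and 4.47% lower. The call of Park7 follows from the knockout, so Pink1 was the only call among the genes other than the targeted gene. With equal FPKM sums the Pink1 difference was -0.91 with an adjusted p of 0.0687. The groups did not overlap for 2 of the 7 genes, against 25.6% of the tested genes. Htra2 was at -0.78 (adjusted p 0.133), Atp13a2 at -0.43, Fbxo7 at -0.17, Vps35 at 0.04 and Lrrk2 at 0.09, none of them called. This comparison shares its knockout libraries with the preceding one, so its values are no independent repeat.

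Differences moved with gene length over all genes. Park7 (2479 bases in the table), Pink1 (2673) and Htra2 (2946) are the 3 shortest of the 7 and had the 3 lowest differences in DJ-1 KO OVA against WT OVA. Park7 is the targeted gene, so its low place follows from the knockout and says nothing about length. Pink1 and Htra2 alone are too few to show a length pattern among the members. Atp13a2 (6000), Fbxo7 (6180), Vps35 (8899) and Lrrk2 (11834) lie in the longest quartile of tested genes. Over all tested genes, the median difference in that comparison was -0.39, -0.16, 0.08 and 0.35 from the shortest to the longest quartile, and the called genes had a median length of 1544 bases when lower and 5324 when higher. The gap between the longest and the shortest quartile, relative to the mean of all libraries, was 0.70 and 0.61 in DJ1_KO_OVA_263 and DJ1_KO_OVA_267 and -0.06 in DJ1_KO_OVA_266. It ran from -0.46 to -0.21 in WT OVA and from -0.35 to 0.29 in WT PBS. After the length trend of each library was removed, a step chosen after seeing the data, Pink1 differed by -0.86 (limma adjusted p 0.028) and Park7 by -3.23, and both were still called. What the length trend contributes to the single genes was not tested further.

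**Figure D3:**
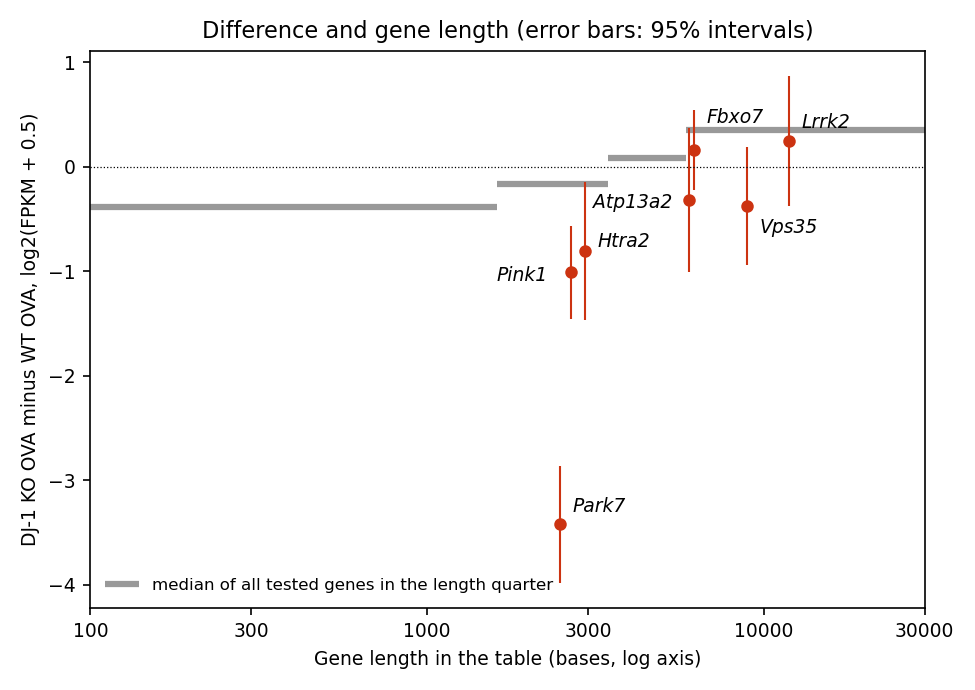
Difference between DJ-1 KO OVA and WT OVA on the log2(FPKM + 0.5) scale against gene length (log axis, the shortest and longest genes cut off). Points are the 7 genes with 95% intervals, and grey bars are medians of all tested genes in each length quartile, which rise from -0.39 to 0.35. All 7 genes lie below the median of their quartile, Park7 because it is the targeted gene. The intervals of Htra2, Lrrk2, Fbxo7 and Atp13a2 (-0.32) include that median, and those of Park7, Pink1 and Vps35 (-0.38) do not.

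Park7, Pink1 and Atp13a2 lie on chromosome 4, with Pink1 at 12.6 Mb and Atp13a2 at 9.89 Mb from Park7. Without the members, 137 tested genes lay from Pink1 to Park7, and in DJ-1 KO OVA against WT OVA 7 of them were called higher and 23 lower, or 21.9%. Within 5 Mb of Park7 the counts were 5 higher and 20 lower of 141, or 17.7%, and on the whole of chromosome 4 they were 64 and 118 of 1052, or 17.3%, beside 14.2% over all genes. Lower calls were the more frequent over all genes as well, with 1051 higher and 1459 lower. The count within 5 Mb ran from 8 without DJ1_KO_OVA_267 to 45 without DJ1_KO_OVA_266. Whether these shares differ from the rest of the genome was not tested, and the labels do not say on which background the knockout allele was made. Named by distance, the nearest called genes were Camta1 (2.89 kb from Park7, -0.82), a calmodulin-binding transcription factor gene, Spsb1 (0.97), Thap3 (-0.97), Slc25a33 (-1.40), a mitochondrial pyrimidine carrier gene, and Hes2 (-1.32). Tnfrsf9, which starts 125 bases from Park7 in the deposited coordinates and encodes a costimulatory receptor of T cells, was not called in this comparison (0.96, limma adjusted p 0.0945) and was called higher in DJ-1 KO OVA against WT PBS (1.72, adjusted p 0.0207). Its mean FPKM (± SD, n = 3) was 15.0 ± 8.79 in DJ-1 KO OVA, a wide spread, and 3.79 ± 0.801 in WT PBS. In the deposited coordinates Tnfrsf9 and Camta1 overlap.

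**Figure D4:**
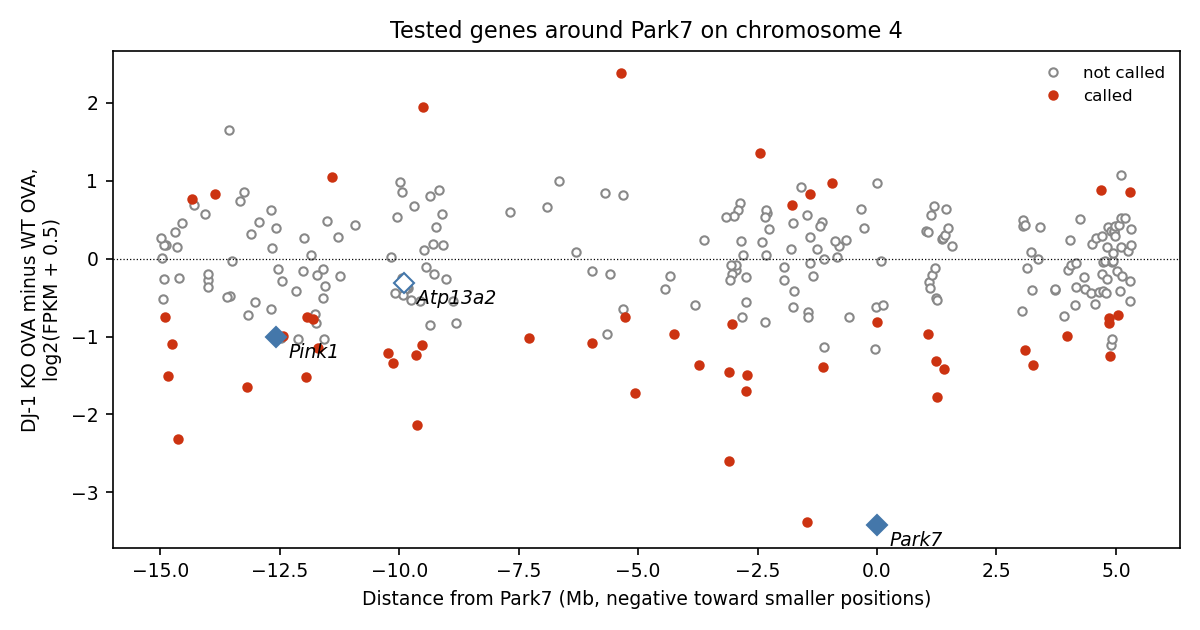
Difference between DJ-1 KO OVA and WT OVA on the log2(FPKM + 0.5) scale against distance from Park7 in Mb. Circles are tested genes, filled where called, and diamonds are Park7 (-3.42), Pink1 (-1.01) and Atp13a2 (-0.32, open). Called genes lie on both sides of Park7, and from Pink1 to Park7 23 of the 30 called were lower. Lower calls were also the more frequent on chromosome 4 without the members (118 lower, 64 higher) and over all tested genes (1459 of 2510).

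The 11 lists of genes that work with the members held 148 tested genes, each counted once and without the members. In DJ-1 KO OVA against WT OVA 12 were called higher and 8 lower, or 13.5%, close to the 14.2% of all genes, and the higher ones had a median length of 8165 bases against 1990 for the lower. In WT OVA against WT PBS none was called by limma or by limma-voom, with 6 of the 148 at an unadjusted p below 0.05, and in DJ-1 KO OVA against WT PBS 4 were higher and 4 lower. The 20 calls between the ovalbumin groups kept their sign with equal FPKM sums, quantile normalization and limma-voom. That says little, because limma-voom used the library sizes already in the FPKM. Equal sums moved the median of all genes by 0.46, while the call nearest to 0 was Vps26b (0.70). Signs with the length trend removed are not given here. The number of calls was 0 without DJ1_KO_OVA_267 and 53 without DJ1_KO_OVA_266.

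In DJ-1 KO OVA against WT OVA, 5.93% of all tested genes were called higher and 8.24% lower. Whether the count of any single list departs from these shares was not tested. Among mitophagy receptors and adaptors, 2 of 22 genes fell in DJ-1 KO OVA against WT OVA and 0 rose, with a median of -0.18. They were Bnip3 (-1.29), a receptor on the mitochondrial outer membrane, and Map1lc3a (-1.36, limma adjusted p 0.015), which encodes the autophagosome protein LC3A. In fusion and fission, Fis1 (-1.21), the fission adaptor of the outer membrane, fell as 1 of 11 genes, with a list median of 0.32. Of 15 import genes, the receptor gene Tomm70a (0.98) rose and Tomm7 (-1.11) and Tomm20 (-1.03), further parts of the entry gate of the outer membrane, fell. The import list includes genes of the complex that holds PINK1 at the outer membrane, and its median was -0.16.

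Beside the lists that follow, 5.93% of all tested genes were called higher and 8.24% lower. Of 13 mitochondrial proteases and chaperones, 3 rose and 0 fell, with a median of 0.27. They were Hspd1 (0.99, limma adjusted p 0.0164), which encodes the matrix chaperonin HSP60, Hspa9 (0.71), which encodes the import motor mortalin, and Afg3l2 (0.77), an inner membrane protease gene. In the HTRA2 and IAP list, Apaf1 (1.11), the scaffold of the apoptosome, rose as 1 of 11 genes. Among 12 DJ-1 interaction partners, Hspa9 is listed again and rose, and Sod1 (-1.59, adjusted p 0.0135), the cytosolic superoxide dismutase gene, fell.

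In the endolysosomal lists, 3 of 18 retromer and WASH genes rose and 0 fell, namely Washc5 (0.74), Snx27 (0.90) and Vps26b (0.70), while the list median was -0.01. The shares called over all tested genes were 5.93% higher and 8.24% lower. Rab29 (-1.09), a Golgi and lysosome GTPase that recruits LRRK2, fell as 1 of 14 LRRK2 Rab genes. In the ATP13A and polyamine list, Atp13a3 (1.10), a plasma membrane relative of Atp13a2, rose and Oaz2 (-1.06), an antizyme gene of polyamine control, fell, out of 14 genes that include Atp13a2 itself. None of the 6 FBXO7 SCF ligase partners was called by limma, although 3 had an unadjusted p below 0.05 and limma-voom called 2. Rbx1 was at an adjusted p of 0.0517 and Cdk6 at 0.0614. Among 18 other Parkinson disease genes, 3 rose and 0 fell, namely Eif4g1 (1.06), a translation initiation scaffold gene, Vps13c (1.27), a lipid transfer protein gene, and Dnajc13 (0.84), an endosomal co-chaperone gene.

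**Figure D5:**
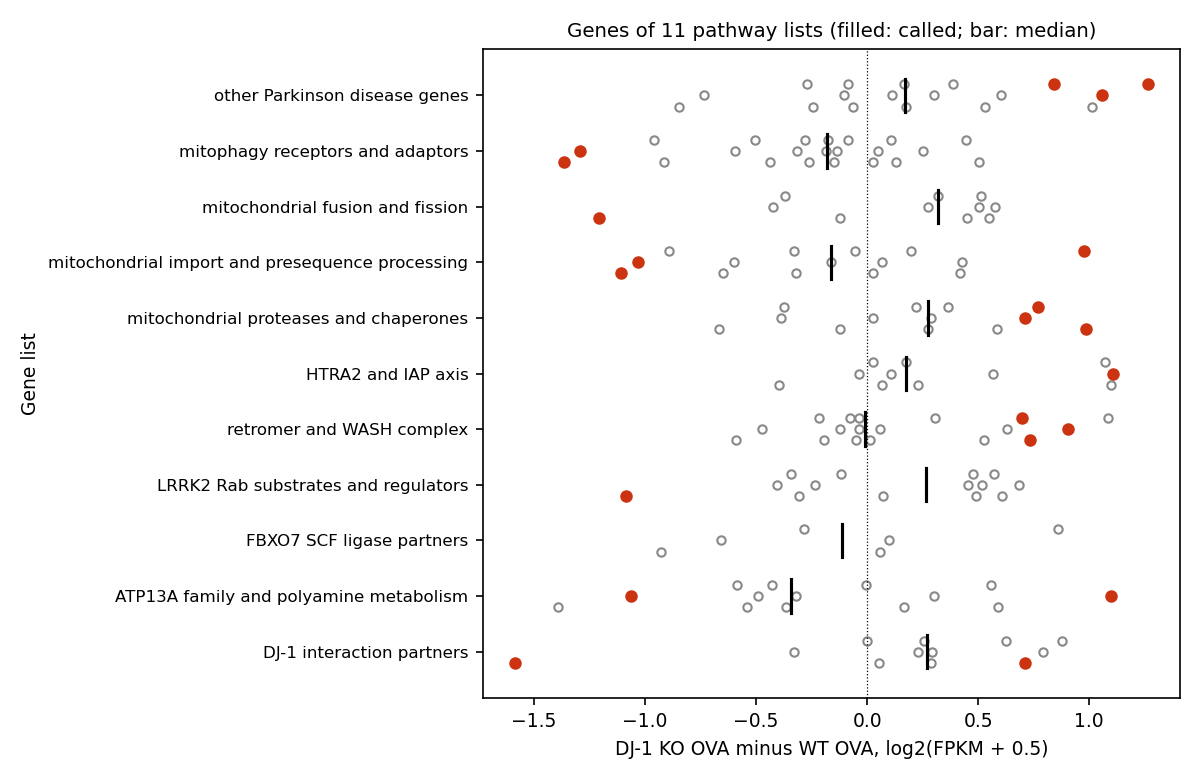
Difference between DJ-1 KO OVA and WT OVA on the log2(FPKM + 0.5) scale for each tested gene of the 11 pathway lists. Filled points were called at an adjusted p below 0.05, open points were not, and black bars are list medians, which run from -0.34 for the ATP13A and polyamine list to 0.32 for fusion and fission. Hspa9 appears in 2 lists.

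Over the 9 libraries, the log2 levels of Park7 and Pink1 had a Pearson correlation of 0.90, those of Htra2 and Atp13a2 of 0.87, and those of Lrrk2 and Atp13a2 of -0.88. These describe 9 points that share 3 groups and the length trend above. Ranked by correlation among the 6598 genes whose mean FPKM was 5 or more, the patterns most like Park7 were those of mt-Nd3 (0.996), Stfa1 (0.994) and Stfa2l1 (0.991), which had a mean FPKM of 6.01, 0.603 and 15.2 in DJ-1 KO OVA and of 89.3, 12.3 and 181 in WT OVA. For Pink1 they were Eif1 (0.983), Klf2 (0.976) and Leng9 (0.973). For Htra2 they were Rras, Tmem179b and Relt (0.973 to 0.971), and for Atp13a2 they were Chmp4b, Tspan17 and Amz1 (0.988 to 0.982). Vps35 was most like Zfand6, Krcc1 and Fundc1 (0.980 to 0.970), Lrrk2 most like Slc38a2, Epc2 and Prpf18 (0.975 to 0.957), and Fbxo7 most like Klhl26, Dtx3 and Gpr153 (0.946 to 0.916).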

How the data were processed

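RNA of lung cells was sequenced in 9 libraries, from total RNA and an Illumina TruSeq kit, per the labels. The authors ran Trimmomatic, HISAT2 and HTSeq on GRCm38.p6, per the submitters' processing notes. Tool versions and any use of strand are not stated there. The deposited values are FPKM per gene. Within a tolerance of 0.01 reads, 100% of them came out as whole reads, and the library sizes behind them followed median-of-ratios size factors, so the FPKM are already scaled on the median gene.

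Genes whose mean FPKM reached 0.2 were analysed as log2(FPKM + 0.5), which understates differences of low genes, with limma 3.58.1 in R 4.3.3, as 1 fit of 3 group means with 6 residual degrees of freedom, a variance trend and Benjamini-Hochberg adjustment over all 17716 genes. Calls had an adjusted p below 0.05. The fit was tested on simulated data with the same setting of variation for every gene, no length trend and no outlying library. That test therefore does not show how reliable the calls here are. Alternatives changed the pseudocount, filter, scaling, variance model, the libraries in the fit and, added after seeing the data, the length trend. Each library was left out in turn.

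All members are named, with up to 3 called genes of smallest p per pathway list (counts cover all), the 5 called genes nearest to Park7 that carry a gene symbol and the 3 genes most like each member. Tnfrsf9 was chosen after its values were seen. Members and lists were chosen with earlier results of these data known. Where a symbol belonged to several identifiers, the identifier with the highest mean was taken. The labels give no batch and no numbers that pair libraries.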

Additional observations from a re-analysis of the deposited data

How the results depend on the processing

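Of the 21 member differences, 399 values came from 19 alternatives each, and 372 kept direction and side of the threshold. The calls of Park7 held in all of them. Pink1 lost its call 6 times, as given above, and Htra2 gained calls without DJ1_KO_OVA_266 (-1.12 and, against WT PBS, -1.09). The sign turned 19 times, always in differences that were not called. With equal FPKM sums it turned for Park7 (-0.0049) and Htra2 (-0.27) in WT OVA against WT PBS, for Vps35 (0.23) and Atp13a2 (0.29) in DJ-1 KO OVA against WT OVA and for Fbxo7 (0.10) against WT PBS. With the length trend removed it turned for Lrrk2 (-0.16) and Fbxo7 (-0.065) against WT OVA and for Lrrk2 (-0.18) and Vps35 (-0.18) against WT PBS. With single libraries left out it turned for Lrrk2 (range -0.032 to 0.53 against WT OVA and -0.19 to 0.38 against WT PBS), Vps35 (-0.19 to 0.25 against WT PBS), Htra2 (-0.10 to 0.18 in WT OVA against WT PBS) and Atp13a2 (-0.60 to 0.065 for the knockout against WT OVA and -0.21 to 0.041 in WT OVA against WT PBS). The members called were 0 in every setting for WT OVA against WT PBS. They were 1 with equal FPKM sums in both knockout comparisons, and with a library left out 1 to 3 against WT OVA and 2 to 3 against WT PBS.

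Counts over all genes moved more. WT OVA against WT PBS had 0 calls with a pseudocount of 0.1, a minimum mean FPKM of 1, equal sums, quantile normalization, limma-voom, only the 2 groups or the length trend removed, 2 without a filter and 0 to 14 with a library left out. The 2510 calls of DJ-1 KO OVA against WT OVA became 645 without a filter, 5034 with equal sums (4432 higher and 602 lower, against 1051 and 1459) and 1131 with only the 2 groups, and 286 (without DJ1_KO_OVA_267) to 5694 (without DJ1_KO_OVA_266) with a library left out. The 1513 calls against WT PBS became 669, 1400 (968 higher and 432 lower, against 721 and 792) and 700 in the same settings and 436 to 3897 with a library left out. Equal sums moved the median of all genes by 0.46, 0.24 and, for WT OVA against WT PBS, -0.22. The 20 pathway genes called against WT OVA became 6, 65 and 6, and 0 to 53, and the 8 against WT PBS became 4 without a filter, 1 with only the 2 groups, 14 with the length trend removed and 1 to 34. Genes called within 5 Mb of Park7 became 15 without a filter, 51 with equal sums and 8 to 45 against WT OVA, and 6 to 30 against WT PBS. From Pink1 to Park7 they became 15 without a filter and 10 to 55, and 11 to 36 against WT PBS. The causes were not tested. With 3 libraries a group, differences near 2-fold lie close to the threshold. No paired analysis was possible because the groups share no replicate numbers.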
